A study of Homo sapiens with 6 samples.

Results

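The genes described here are 30 genes of the p53 pathway and its damage kinases, taken by name from a table of 38170 annotated features. They comprise 3 regulators of p53, 6 genes of cell cycle arrest, 10 of cell death and survival, 7 of DNA repair, redox metabolism and secretion, and the 4 kinases ATM, ATR, CHEK1 and CHEK2. RNA was sequenced from A549, a human lung adenocarcinoma cell line, in 3 libraries with an empty vector and 3 with overexpression of LOC401312, a long non-coding RNA. Both were delivered with piggyBac, a transposon that inserts its cargo into the genome. Cells of both groups were grown in the same serum-containing medium, and no library was labelled as irradiated. Libraries were grouped by title. For replicates 2 and 3 of LOC401312 the genotype field disagrees with the title, giving LOC401313 and LOC401314. Nothing in the labels tells a clone from a pool of cells, or ties libraries to separate cultures, so each p-value reflects library-to-library spread alone, possibly only technical.

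The transcription factor p53 is held at a low level by MDM2, a ubiquitin ligase that is itself a p53 target, and by the MDM2 relative MDM4. After DNA damage the kinases ATM and ATR, with their effectors CHEK2 and CHEK1, phosphorylate p53 and its regulators, and p53 then switches on genes that stop the cell cycle, repair DNA or start cell death. A549 cells are known to have lost CDKN2A, whose ARF product restrains MDM2.

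The libraries held 60971105 to 73994619 counts. The STEAP1B entry, which contains LOC401312, rose from 9 to 23 counts per vector library to 90297 to 94628 counts per LOC401312 library. CPS1, the urea cycle enzyme named as another check of the labels, went from 58 ± 1.4 to 123 ± 2.83 CPM (SD, n = 3 each). The 11 A549-type epithelial markers summed to 16800 to 18100 CPM (counts scaled to a fixed library total after TMM adjustment) in vector and 16300 to 16900 CPM in LOC401312, with 3 called higher and 3 lower. The A549 keratins KRT8 and KRT18 were abundant in all 6 libraries (KRT8 at 4620 to 5150 CPM), whereas EPCAM stood at 1.69 to 2.85 CPM and SFTPB at no more than 0.264 CPM. Transcripts used as markers of other cell types differed between libraries, and which cells made them was not tested. The sum of 10 placental markers was 1.86 to 2.58 CPM in vector, 2.38 in LOC401312 replicate 1, and 99.5 and 91.8 in replicates 2 and 3, with 7 of the 10 called higher. The sum of 8 urothelial-type markers was 11.2 to 13 CPM in vector and 3.01 to 3.88 in LOC401312, with 3 called lower. That of 5 fibroblast markers was 26.3 to 52.1 CPM in vector and 18.1 to 20.3 in LOC401312, with 1, COL1A1, called lower. The 5 leucocyte markers summed to 44.1 to 49.4 and 53.7 to 61.2 CPM, mostly CD68, which was called higher, while PTPRC reached 3.45 CPM in vector replicate 1 and at most 0.117 CPM elsewhere. The 4 endothelial markers summed to 1.61 to 1.82 CPM in vector and 1.06 to 2.4 in LOC401312, with none called. No marker of these lists was at 0 in all libraries. The part of these transcripts in the results below was not tested, and in bulk RNA fewer cells of a type and less RNA per cell cannot be told apart.

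In LOC401312, 2 of the 30 genes rose, MDM2 and the death receptor FAS, and 2 fell, the secreted cytokine GDF15 and the mitochondrial reductase FDXR. The other 26 did not pass an adjusted p of 0.05 (edgeR quasi-likelihood test, adjusted over 19620 features tested). The changes were small. GDF15 reached 0.714-fold of vector, FDXR 0.799-fold, MDM2 1.19-fold and FAS 1.18-fold. The principal p53 effector of cell cycle arrest, CDKN1A, was at 1.06-fold (95% interval 0.981 to 1.14).

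These 4 calls are 13.3% of the genes, beside 8.72% of all features tested (4.13% higher and 4.58% lower). Among the 9796 features with a mean CPM within the range of these genes, 7.97 to 229, the called share was 12.5%. The count of calls is thus near that of features of like abundance. All 30 passed the low-count filter, and the lowest count of any in any library was 468. Their median log2 change was 0.001, with 15 positive and 15 negative, beside a median of -0.001 over all features tested. Every LOC401312 library lay outside the vector range in 9 of the 30, 4 higher and 5 lower, beside 27.9% of all features tested (14% higher and 13.9% lower) and 33.8% of those of like abundance. An exact two-sided permutation test must give p = 0.1 for each of these 9, the smallest that 20 arrangements of 3 against 3 libraries allow. That value follows from the lack of overlap and adds no support of its own.

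**Figure D1:**
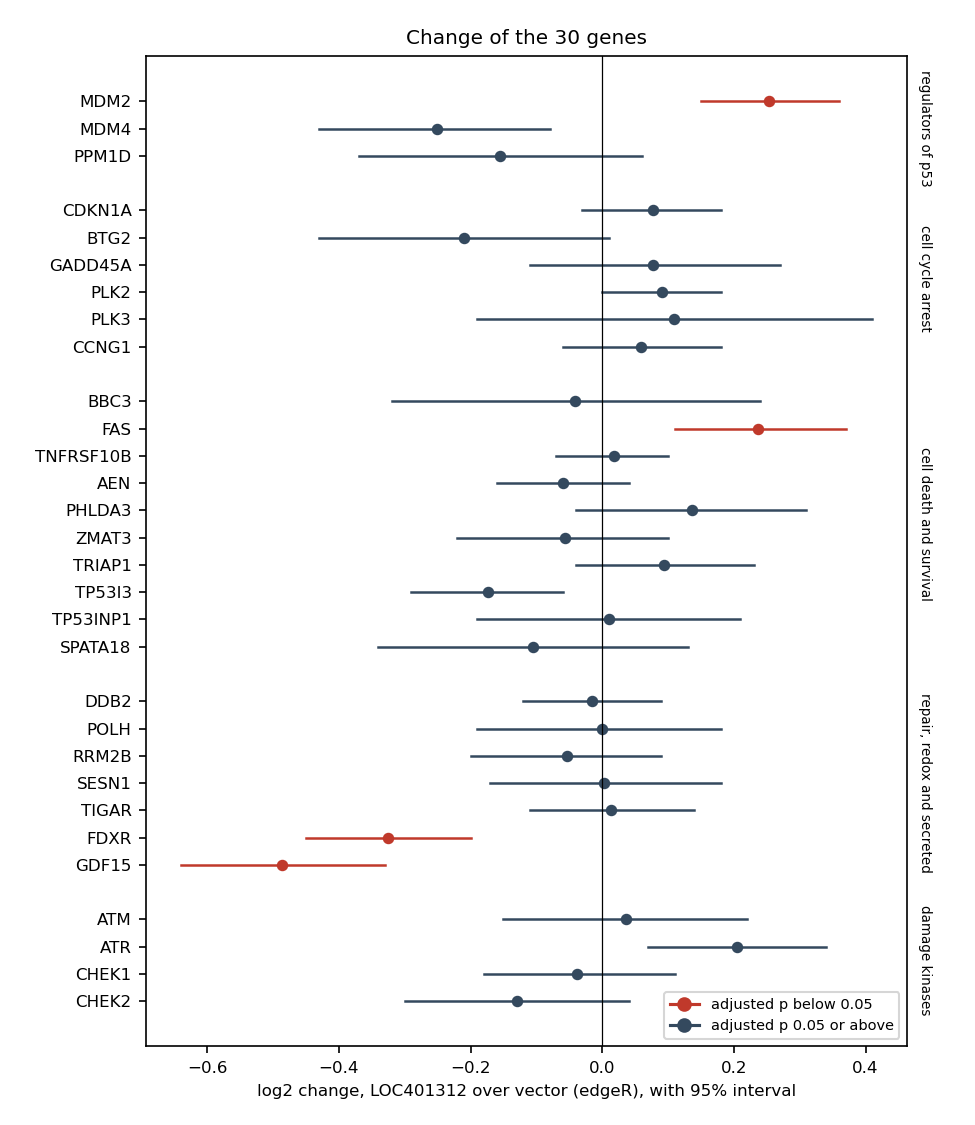
Log2 change of each of the 30 genes, LOC401312 over vector, from edgeR (x axis), with genes grouped by role (y axis). Points are estimates, bars are 95% intervals and red marks an adjusted p below 0.05; GDF15 and FDXR lie to the left of 0, MDM2 and FAS to the right, and most other intervals cross 0.

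The proximal promoters of the 4 called genes are shown because p53 is known to act on all of them, and a site within these windows would place a p53 motif beside a start site. RefSeq sequences (GRCh38.p14) were matched by symbol for 25 of the 30 genes. Each line gives the 250 bases before the RefSeq start, which for GDF15, FAS and FDXR lies inside the deposited gene span,, 5′ to 3′ on the gene's strand, with matches to the 10-base p53 decamer, the repeated unit of a full p53 site, in capitals. The windows are chr19:18385908-18386157 (plus strand) for GDF15, chr17:74872995-74873244 (minus strand) for FDXR, chr12:68807922-68808171 (plus strand) for MDM2 and chr10:88990548-88990797 (plus strand) for FAS.
GDF15: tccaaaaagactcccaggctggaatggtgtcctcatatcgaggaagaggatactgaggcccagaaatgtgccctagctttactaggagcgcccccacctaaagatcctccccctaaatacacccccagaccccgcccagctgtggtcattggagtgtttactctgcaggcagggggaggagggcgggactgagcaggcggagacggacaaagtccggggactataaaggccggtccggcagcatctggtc
FDXR: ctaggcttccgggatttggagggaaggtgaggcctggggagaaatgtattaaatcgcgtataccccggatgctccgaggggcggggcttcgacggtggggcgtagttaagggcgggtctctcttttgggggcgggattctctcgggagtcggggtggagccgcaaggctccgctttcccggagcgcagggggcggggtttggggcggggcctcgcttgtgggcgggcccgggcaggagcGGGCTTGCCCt
MDM2: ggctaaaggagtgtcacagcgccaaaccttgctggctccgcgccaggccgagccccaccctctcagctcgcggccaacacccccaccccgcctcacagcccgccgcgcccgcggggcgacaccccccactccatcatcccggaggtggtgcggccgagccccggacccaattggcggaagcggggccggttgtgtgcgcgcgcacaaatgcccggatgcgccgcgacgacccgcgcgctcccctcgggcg
FAS: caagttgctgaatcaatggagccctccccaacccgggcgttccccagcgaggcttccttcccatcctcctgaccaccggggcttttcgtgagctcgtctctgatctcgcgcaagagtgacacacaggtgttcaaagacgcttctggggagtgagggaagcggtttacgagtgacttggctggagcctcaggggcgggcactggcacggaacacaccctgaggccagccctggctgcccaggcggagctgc
FDXR was the one called gene with a decamer, GGGCTTGCCC, which covers bases 11 to 2 before the RefSeq start and so lies within the deposited span of the gene. The same decamer letters stood 34 to 25 bases before the start of AEN, and PLK2 had AGACTTGCTT at 132 to 123 bases. In all, 3 of 25 genes (12%) held a match, beside 5.53% of 27305 promoters of the same length. The pattern that defines the decamer is the same on both strands, though a single match need not be. A match is a description of the letters only. The well-known p53 sites of MDM2 and CDKN1A lie outside such windows. The element TGATGNAA, bound by ATF4 with its partners and searched on both strands, was in 3.19% of all promoters and in 1 of the 25, PLK3 (TGATGTAA, bases 133 to 126 before the start, same strand). The GC box GGGCGG, searched on both strands, was in 18 of the 25 (72%) and in 42.3% of all promoters, and the median GC content of the 25 windows was 67.6%, against 58% over all.

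Among the regulators of p53, MDM2 rose. MDM2 (ENSG00000135679, chr12:68808177-68850686) stood at 94.5, 85.4 and 91.7 CPM in vector and at 110, 108 and 106 CPM in LOC401312. The groups did not overlap, and all LOC401312 libraries were above the highest vector library. This was 90.5 ± 4.65 against 108 ± 2.09 CPM (SD, n = 3 each), a log2 change of 0.25 (SE 0.05, adjusted p = 0.00964). Chromosome 12 as a whole was higher in LOC401312, with a median log2 change of 0.117 over 642 genes, and with each chromosome's median removed MDM2 was at 0.14 (adjusted p = 0.126). Its call was also lost without LOC401312 replicate 2 (adjusted p = 0.0523). The carboxypeptidase M gene overlaps MDM2 on the other strand over 8490 bases, held 9.79% as many counts and was itself called higher (log2 change 0.56, adjusted p = 0.0125). Whether counting used strand is not stated in the labels, and reads from the shared stretch cannot be told apart.

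MDM4 (chr1:204516379-204558120), which binds and blocks p53 without degrading it, had the opposite sign. It was at 23.4, 20.6 and 20.6 CPM in vector and 18, 18.6 and 17.7 CPM in LOC401312. The groups did not overlap, but the log2 change of -0.25 (SE 0.08) did not pass over all features (adjusted p = 0.0825). PPM1D, a phosphatase that switches off p53 and the kinases, overlapped between groups, at 20.6 to 24.2 CPM in vector and 18.2 to 22.3 CPM in LOC401312 (log2 change -0.15, 95% interval -0.37 to 0.06).

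A ratio of 2 genes within a library does not depend on library scaling. For MDM2 over MDM4 it was 4.04, 4.14 and 4.45 in vector and 6.11, 5.78 and 6 in LOC401312. The mean ratio was 4.21 ± 0.212 against 5.97 ± 0.168 (SD, n = 3 each), and the groups did not overlap. This was 1 of 6 ratios, all chosen after the values of the genes had been seen and all without overlap, so they carry no test. A ratio shows unequal change of a pair, not which gene changed.

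**Figure D2:**
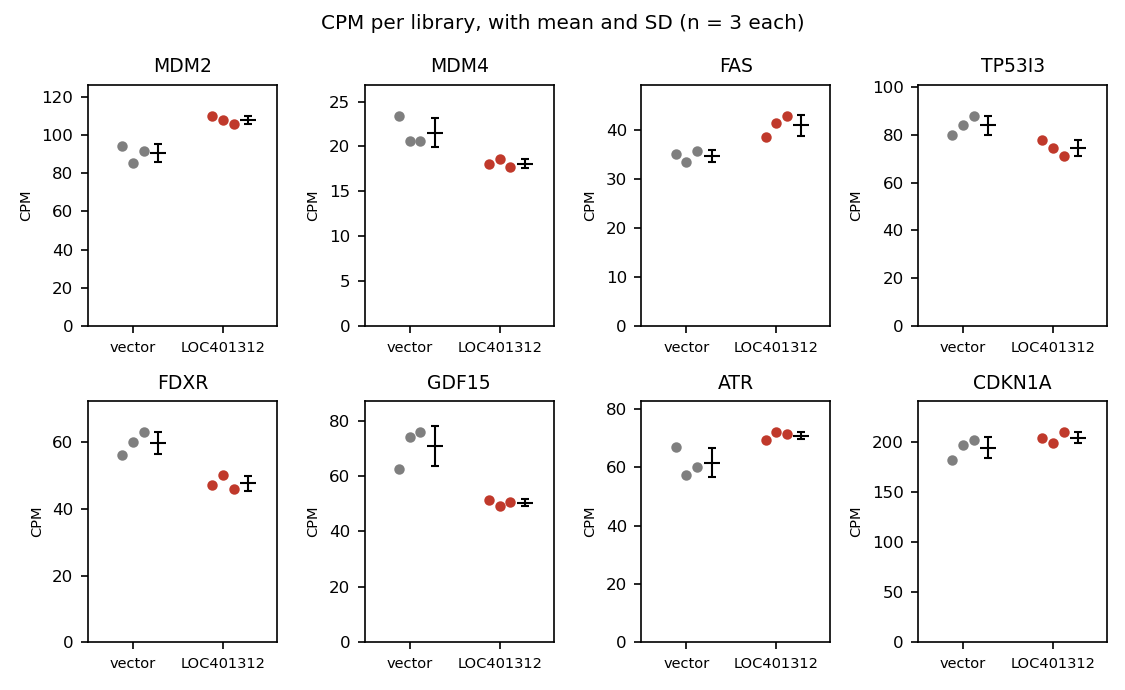
CPM in each library (points) with mean and SD (bars, n = 3) for the 7 genes with an unadjusted p below 0.05 and for CDKN1A, all axes starting at 0. Of all 19620 features tested, 4434 had such a p. In MDM2, FAS and ATR the LOC401312 libraries lie above the vector libraries and in MDM4, TP53I3, FDXR and GDF15 below, while the groups of CDKN1A overlap.

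None of the 6 genes of cell cycle arrest passed the test, and their log2 changes ran from -0.21 to 0.11. CDKN1A encodes p21, the inhibitor of cyclin-dependent kinases, and was among the highest of the 30. It stood at 182, 197 and 202 CPM in vector and 204, 199 and 209 CPM in LOC401312. The groups overlapped, since LOC401312 replicate 2 was below vector replicate 3 (log2 change 0.08, SE 0.05, adjusted p = 0.389). PLK2, a polo-like kinase induced by p53, was at 212, 228 and 227 CPM in vector and 232, 240 and 238 CPM in LOC401312. Its groups did not overlap, and the log2 change of 0.09 (SE 0.04) did not pass (adjusted p = 0.229).

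The antiproliferative gene BTG2 had the lowest value of this role, with a log2 change of -0.21 (95% interval -0.43 to 0.01, adjusted p = 0.238) and overlapping groups of 17.9 to 20.1 and 14.7 to 18.1 CPM. GADD45A, a stress sensor that binds PCNA, was at 18.1 to 19.9 and 18.6 to 22.1 CPM. CCNG1, cyclin G1, was at 110 to 121 and 114 to 125 CPM. PLK3, the least abundant gene of this role, was at 6.3 to 8.81 CPM in vector and 7.92 to 8.54 CPM in LOC401312, and its interval was the widest, from -0.19 to 0.41.

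Of the 10 genes of cell death and survival, 1 rose and none fell. FAS (chr10:88990531-89017059), the receptor of FAS ligand on the cell surface, stood at 35, 33.4 and 35.7 CPM in vector and 38.6, 41.4 and 42.8 CPM in LOC401312. All LOC401312 libraries were above all vector libraries, and the log2 change was 0.24 (SE 0.06, adjusted p = 0.0332). The call was lost on leaving out any library except LOC401312 replicate 1 (adjusted p up to 0.137), and with the replicate number as a block (0.0811). TNFRSF10B, the TRAIL receptor DR5 and the other death receptor of the set, was more abundant and overlapped between groups, at 215, 221 and 218 CPM and 227, 215 and 220 CPM (log2 change 0.02, 95% interval -0.07 to 0.1).

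TP53I3, a quinone oxidoreductase linked to p53-dependent oxidative death, was at 80, 84.4 and 88 CPM in vector and 77.8, 74.7 and 71.2 CPM in LOC401312. The groups did not overlap, but the log2 change of -0.17 (SE 0.05) did not pass (adjusted p = 0.0716). It lies on chromosome 2, whose 780 genes had a median log2 change of -0.233, and with chromosome medians removed its value was 0.05 (adjusted p = 0.65). TP53I3 was called lower with DESeq2 (adjusted p = 0.0314), with the robust edgeR fit (0.0492) and without vector replicate 1 (0.0332).

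The BH3-only killer BBC3, also called PUMA, was at 7.27 to 9.41 CPM in vector and 7.61 to 9.06 CPM in LOC401312 (log2 change -0.04, adjusted p = 0.9). The exonuclease AEN was at -0.06, and PHLDA3, a repressor of AKT, at 0.14 with a vector range of 53.7 to 68.1 CPM that reached into the LOC401312 range of 63.4 to 69.9 CPM. ZMAT3, an RNA-binding p53 target, was at -0.06, TRIAP1, which restrains apoptosis, at 0.09, TP53INP1, a cofactor of p53 in stress responses, at 0.01 and SPATA18, which acts in mitochondrial quality control, at -0.11. These 7 genes had adjusted p of 0.355 or more, and overlapping groups.

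Of the 7 genes of repair, redox metabolism and secretion, 2 fell and none rose. GDF15 (chr19:18374731-18389176), a stress-induced member of the TGF-beta family, stood at 62.4, 74 and 75.7 CPM in vector and at 51.4, 49.1 and 50.8 CPM in LOC401312. Vector replicate 1 was the lowest of its group and still above all LOC401312 libraries. The means were 70.7 ± 7.26 and 50.5 ± 1.2 CPM (SD, n = 3 each), and the log2 change of -0.49 (SE 0.07, adjusted p = 0.00238) was the largest in size among the 30. GDF15 passed on leaving out each library in turn (log2 change -0.57 to -0.43, adjusted p up to 0.0212), and was at -0.49 with chromosome medians removed. Over CDKN1A in the same library, GDF15 counts gave vector ratios of 0.344, 0.375 and 0.375 and LOC401312 ratios of 0.252, 0.247 and 0.243, without overlap.

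FDXR (chr17:74862497-74873031), the reductase that feeds electrons to mitochondrial cytochrome P450 enzymes, was at 56.1, 60.1 and 62.8 CPM in vector and 47, 50.1 and 45.8 CPM in LOC401312. The groups did not overlap, with 59.7 ± 3.4 against 47.6 ± 2.22 CPM (SD, n = 3 each) and a log2 change of -0.32 (SE 0.06, adjusted p = 0.00644). It passed without each library in turn (adjusted p up to 0.0422). LOC401312 replicate 1 lay on the same side of the vector libraries as replicates 2 and 3 for GDF15, FDXR, MDM2 and FAS. Its placental marker sum was within the vector range. Its urothelial-type sum (3.8 CPM, vector 11.2 to 13) and fibroblast sum (18.1 CPM, vector 26.3 to 52.1) were below vector, like those of replicates 2 and 3. The part of any of these transcripts in the 4 calls was not tested. Without replicates 2 and 3 the values were -0.46 for GDF15, -0.34 for FDXR, 0.28 for MDM2 and 0.15 for FAS, and none passed (adjusted p = 0.168, 0.181, 0.198 and 0.558), in a fit with 1 library of LOC401312, assumed to vary like vector, that called 0.798% of features.

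The other 5 genes of this role lay within a log2 change of -0.05 to 0.01 of vector. DDB2, which recognises ultraviolet damage in DNA, was at 55.1 to 57.4 CPM in vector and 53.2 to 57 CPM in LOC401312. POLH, the translesion polymerase eta, was at 20.9 to 23.7 and 20.7 to 24 CPM, and RRM2B, the p53-induced ribonucleotide reductase subunit, at 63.3 to 72.2 and 61.1 to 69.2 CPM. SESN1, a sestrin that restrains mTORC1, had the narrowest vector range, 14 to 14.3 CPM, against 13.6 to 14.7 CPM. TIGAR, a phosphatase that lowers glycolytic flux, was at 45.1 to 49.3 and 45.7 to 50.8 CPM. It lies on chromosome 12 and was at -0.10 with chromosome medians removed (adjusted p = 0.348), against 0.01 without.

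None of the 4 damage kinases passed the test. ATR (chr3:142449007-142578733), which responds to single-stranded DNA at stalled forks, came nearest, at 67.1, 57.5 and 60.1 CPM in vector and 69.5, 72 and 71.4 CPM in LOC401312. All LOC401312 libraries were above the highest vector library, replicate 1, and the log2 change was 0.20 (SE 0.06, adjusted p = 0.0613). It passed without vector replicate 1 (adjusted p = 0.00752), with DESeq2 (0.0159), with the robust fit (0.0368) and with a mean of at least 1 CPM (0.0479).

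ATM, which responds to double-strand breaks, was at 53.9, 42.2 and 43.9 CPM in vector and 49.3, 46.6 and 47.8 CPM in LOC401312 (log2 change 0.04, 95% interval -0.15 to 0.22). Vector replicate 1 stood above the rest for both ATM and ATR among the vector libraries. ATR counts over ATM counts in the same library gave vector ratios of 1.25, 1.36 and 1.37 and LOC401312 ratios of 1.41, 1.55 and 1.49, without overlap. CHEK1, the effector of ATR, was at 34.1 to 38.3 CPM in vector and 33.3 to 37 CPM in LOC401312 (log2 change -0.04, adjusted p = 0.809). CHEK2, the effector of ATM, was at 18.6 to 19.8 and 17 to 18.6 CPM, just without overlap (log2 change -0.13, adjusted p = 0.361).

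For 19 of the 26 genes that did not pass, the 95% interval of the fold lay within 0.8 to 1.25, and over all 26 the intervals spanned 0.744 to 1.32. The median coefficient of variation of the 30 genes was 5.86% in vector and 4.57% in LOC401312, close to the 5.48% and 4.55% of features of like abundance. Vector replicate 1 gave the highest or lowest vector value in 25 of the 30 (83.3%), beside 71.5% over all features tested.

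Per transcript length, the 30 genes spanned a wide range of levels. FPKM, which scales fragment counts for length and library total, averaged 55.7 over the 6 libraries for CDKN1A, 41.4 for PLK2, 36.7 for TNFRSF10B, 31.5 for CCNG1, 28.7 for TP53I3, 24.1 for GDF15 and 21.9 for TRIAP1. The adjacent pair CCNG1 (27.87 to 34.99 FPKM) and TP53I3 (26.67 to 29.92 FPKM) overlapped in level. At the other end were SPATA18 at 1.85, ATM at 1.67 and MDM4 at 1.5 FPKM, which overlapped as well. The kinases stood at 1.67 to 5.93 FPKM, with CHEK1 highest (5.24 to 6.29 FPKM over the libraries) and ATR at 2.04. The target genes of cell cycle arrest spanned 2 to 55.7 FPKM.

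**Figure D3:**
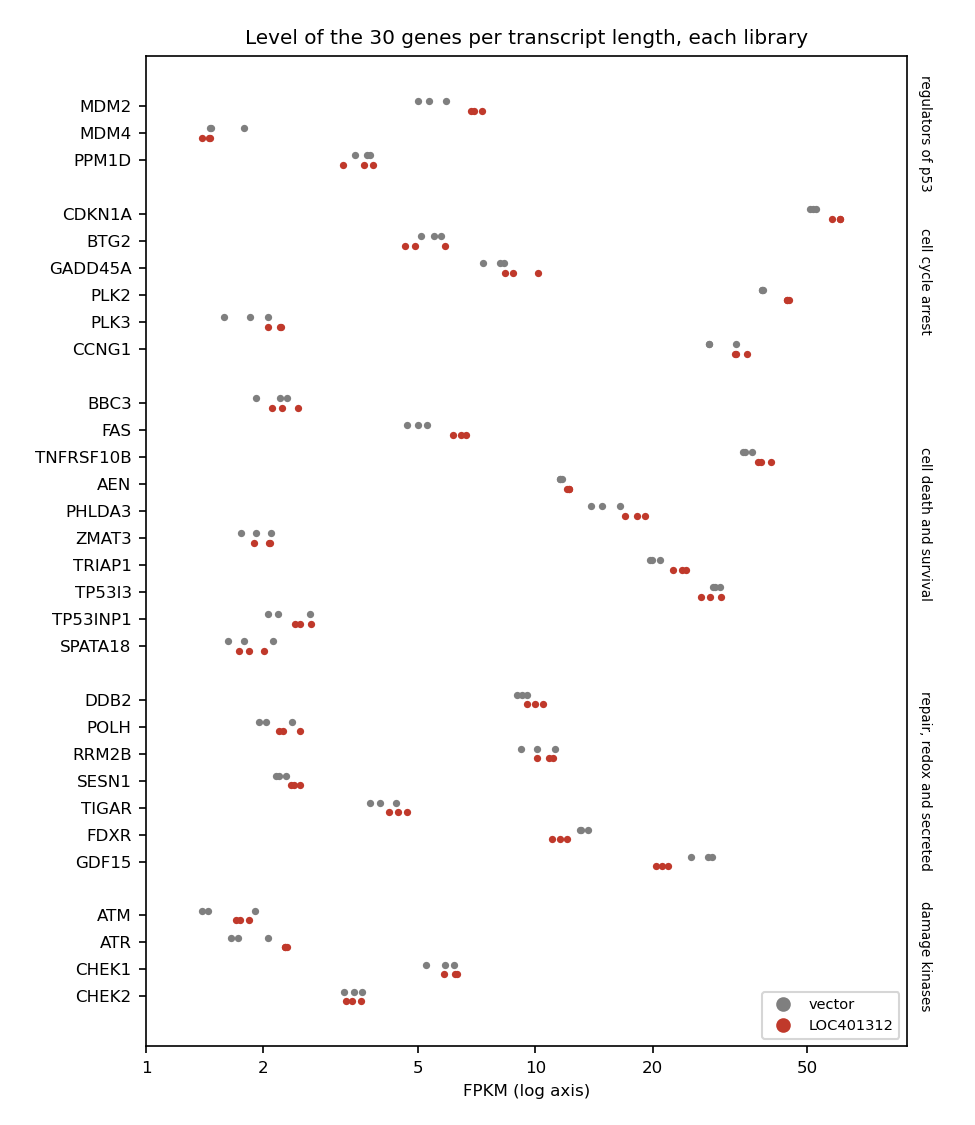
FPKM of each of the 30 genes in each library (x axis, log scale), vector in grey and LOC401312 in red, grouped by role. CDKN1A is at the right at 50.84 to 60.64 FPKM and MDM4 at the left at 1.39 to 1.78 FPKM.

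The deposited FPKM values were shifted upward in LOC401312. Their median log2 change was 0.109 over the 6137 genes averaging 5 FPKM or more, and the median of the 30 genes was 0.121, so that 23 were positive and 7 negative. For CDKN1A the FPKM groups did not overlap, at 50.84, 51.68 and 52.7 in vector and 60.64, 57.75 and 60.53 in LOC401312. With limma on log2(FPKM + 0.1), 5 of the 30 were called higher, MDM2, FAS, CDKN1A, PLK2 and TRIAP1, and 2 lower, GDF15 and FDXR, beside 9.97% of all features (8.36% higher and 1.61% lower). With the libraries centred on those 6137 genes, MDM2 was called higher (log2 change 0.27, adjusted p = 0.0411), GDF15 and FDXR lower, and CDKN1A was at 0.10 (adjusted p = 0.23); all features gave 6.29% (3.03% higher and 3.26% lower).

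DESeq2 called MDM2, FAS and ATR higher and GDF15, FDXR and TP53I3 lower, beside 13.9% of all features (7.04% higher and 6.87% lower). The replicate block left MDM2 higher and GDF15 and FDXR lower, beside 5.55% (2.59% higher and 2.95% lower). Removal of chromosome medians left FAS higher and GDF15 and FDXR lower, beside 6.16% (3.48% higher and 2.68% lower). Without LOC401312 replicates 2 and 3 none of the 30 was called, beside 0.383% of features higher and 0.415% lower.

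**Figure D4:**
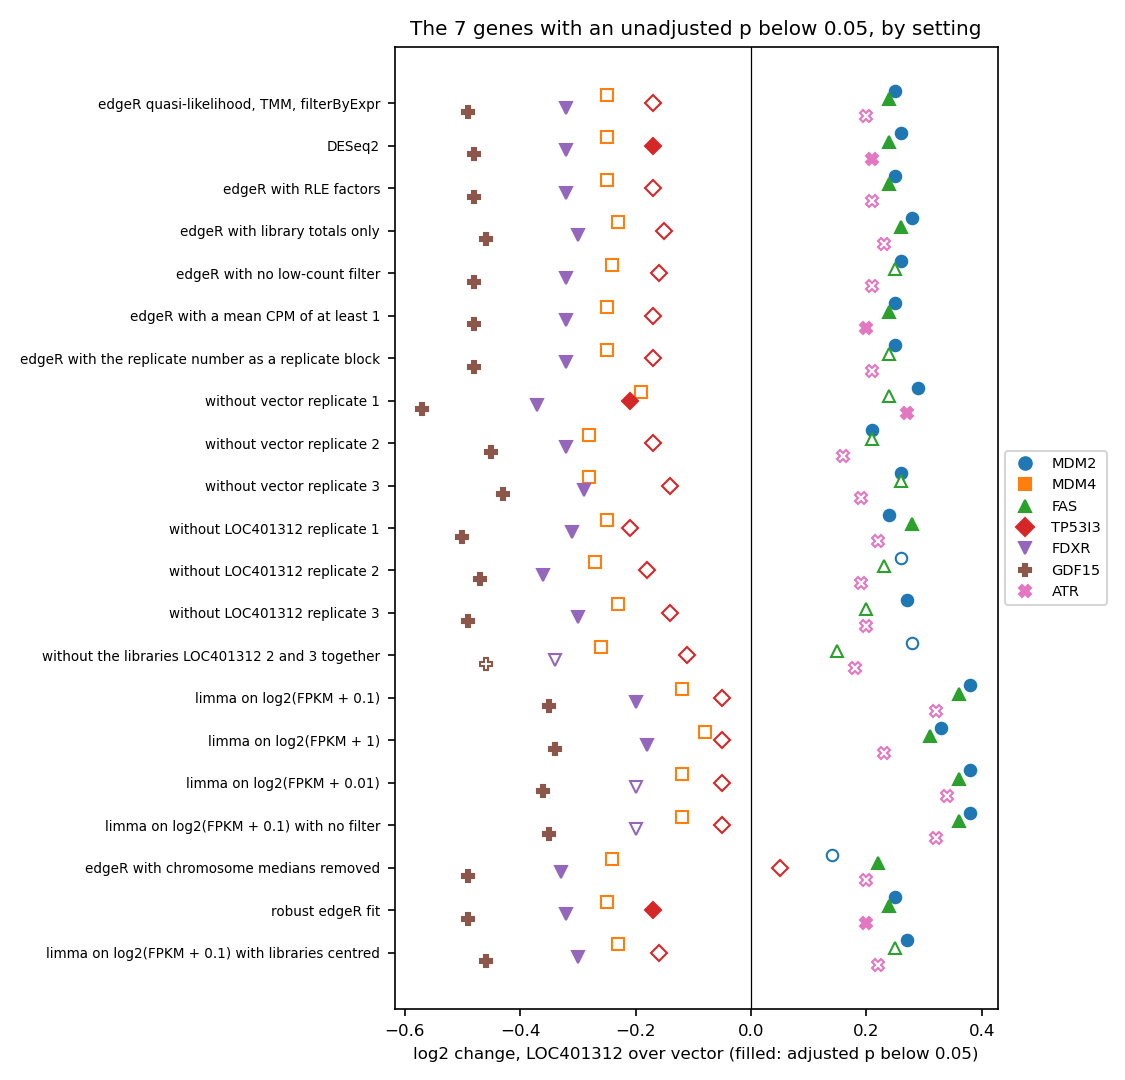
Log2 change, LOC401312 over vector (x axis), under each setting (y axis), filled where the adjusted p was below 0.05. Shown are the 7 genes with an unadjusted p below 0.05 in the main fit, beside 4434 of all 19620 features tested. GDF15 is filled in all but the fit without LOC401312 replicates 2 and 3, and TP53I3 crosses 0 with chromosome medians removed.

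Several of the 30 share bases with a neighbour on the other strand. FAS overlaps ACTA2 over 809 bases, and ACTA2 was at a log2 change of -0.03 with 52.5% as many counts. POLH overlaps GTPBP2 over 15208 bases (log2 change -0.02), TP53INP1 overlaps NDUFAF6 over 23407 bases (-0.03), and CHEK2 overlaps HSCB over 384 bases (-0.28, adjusted p = 0.189). TNFRSF10B shares 60 bases with RHOBTB2, which was called higher (0.32, adjusted p = 0.00173). The counts of these genes are uncertain to the extent of those stretches.

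The wider pathway was read from 6 further gene lists. Some genes, SESN2 among them, stand in several of these lists, so the counts of the lists are not separate observations. Of all features tested 8.72% were called, and of those in the CPM range of the 30 genes 12.5%. That range was not fitted to these lists. Among 26 genes of the p53 family and its modifiers, 1 rose and 2 fell, 11.5% beside 8.72% of all features. The median log2 change was -0.035. DYRK2, a kinase of p53, rose by 0.26 (SE 0.07, adjusted p = 0.0422), and was at 0.14 (adjusted p = 0.267) with the median of its chromosome, 12, removed. RPL11, a ribosomal protein that binds MDM2, fell by 0.20 (SE 0.04, adjusted p = 0.0178). CDKN2A, known to be lost in A549, had 47, 18 and 17 counts in vector (0.276 to 0.633 CPM) and 0 in each LOC401312 library. It was called lower (adjusted p = 0.00717), and the source of the vector reads was not tested. The call of DYRK2 was lost without any 1 of the 6 libraries (adjusted p up to 0.16) and that of RPL11 without any except vector replicate 1 (up to 0.0812), and both were lost with the replicate block (0.0799 and 0.0573).

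Among 62 tested of 64 other p53 targets, 7 rose and 7 fell, 22.6% of those tested beside 8.72% of all features, with a median log2 change of -0.019. The lipid transporter ABCA12 averaged 8.13 ± 0.32 CPM in vector and 15.6 ± 1.06 CPM in LOC401312 (SD, n = 3 each), and rose by 0.94 (SE 0.09, adjusted p = 0.000239). PERP, a desmosome-associated membrane protein, averaged 315 ± 3.34 CPM in vector and 251 ± 9.13 CPM in LOC401312, and fell by 0.32 (SE 0.04, adjusted p = 0.000883). CYFIP2, a subunit of the WAVE actin regulatory complex, fell by 0.39 (SE 0.05, adjusted p = 0.000903). The death gene BAX (log2 change -0.12), the BH3-only gene PMAIP1 (-0.05) and SESN2 (0.02), chosen after their values were seen, did not pass, with adjusted p of 0.302 or more. By sign, 29 of the 62 were positive and 33 negative, and 48 did not pass.

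Among 30 checkpoint partners of the kinases, none passed the edgeR test, beside 8.72% of all features. Of these partners, 6 had an unadjusted p below 0.05, beside 4434 of all 19620 features tested, and the median log2 change was -0.05. WRAP53 (-0.17, adjusted p = 0.0583), which acts in telomerase trafficking and repair, and TOPBP1 (-0.15, adjusted p = 0.152), the activator of ATR, had the smallest p. DESeq2 called 0 of the 30 partners. Of 32 cell cycle genes that are lowered when p21 rises, 4 fell and none rose, 12.5% beside 8.72% of all features. Their median log2 change was -0.063. BUB1 fell by 0.35 (SE 0.05, adjusted p = 0.00218), CCNB1 by 0.17 (SE 0.04, adjusted p = 0.0236) and CCNB2 by 0.19 (SE 0.04, adjusted p = 0.0245). With the median of its chromosome, 2, removed, BUB1 was at -0.12 (adjusted p = 0.175). CCNB1 and CCNB2 lost their calls with the replicate block (adjusted p = 0.0951 and 0.0919) and on leaving out any library except vector replicate 1 (up to 0.108 and 0.123).

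Among 26 paralogues and relatives of the 30 genes, 3 rose and 4 fell, 26.9% beside 8.72% of all features. Their median log2 change was 0.036. TP53INP2, the relative of TP53INP1, rose by 0.41 (SE 0.08, adjusted p = 0.0121), a call lost without vector replicate 3, LOC401312 replicate 1 or LOC401312 replicate 2 (up to 0.053). PPM1G, a phosphatase of the PPM1D family, fell by 0.23 (SE 0.04, adjusted p = 0.00474) and, lying on chromosome 2, was at -0.01 with its median removed. PFKFB3, whose phosphatase domain resembles TIGAR, averaged 351 ± 15.2 CPM in vector and 271 ± 8.45 CPM in LOC401312 (SD, n = 3 each), and fell by 0.37 (SE 0.04, adjusted p = 0.000754).

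ATF4, the transcription factor of the integrated stress response, is also known to drive GDF15. Its part in the change of GDF15 was not tested. Among 21 ATF4 targets, a list that holds ATF4 itself, 1 rose and 5 fell, 28.6% beside 8.72% of all features. The list's median log2 change was -0.102. With chromosome medians removed 3 of the 21 were called. With limma on log2(FPKM + 0.1) 2 of the 21 were called, and with no FPKM filter 0. PSAT1, an enzyme of serine synthesis, fell by 0.27 (SE 0.04, adjusted p = 0.00243), ASNS, asparagine synthetase, by 0.33 (SE 0.05, adjusted p = 0.00419) and MTHFD2, a mitochondrial folate enzyme, by 0.31 (SE 0.04, adjusted p = 0.00228). With the median of chromosome 2 removed, MTHFD2 was at -0.08 (adjusted p = 0.311). In the deposited FPKM values the list's median was 0.024, below their shift of 0.109.

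**Figure D5:**
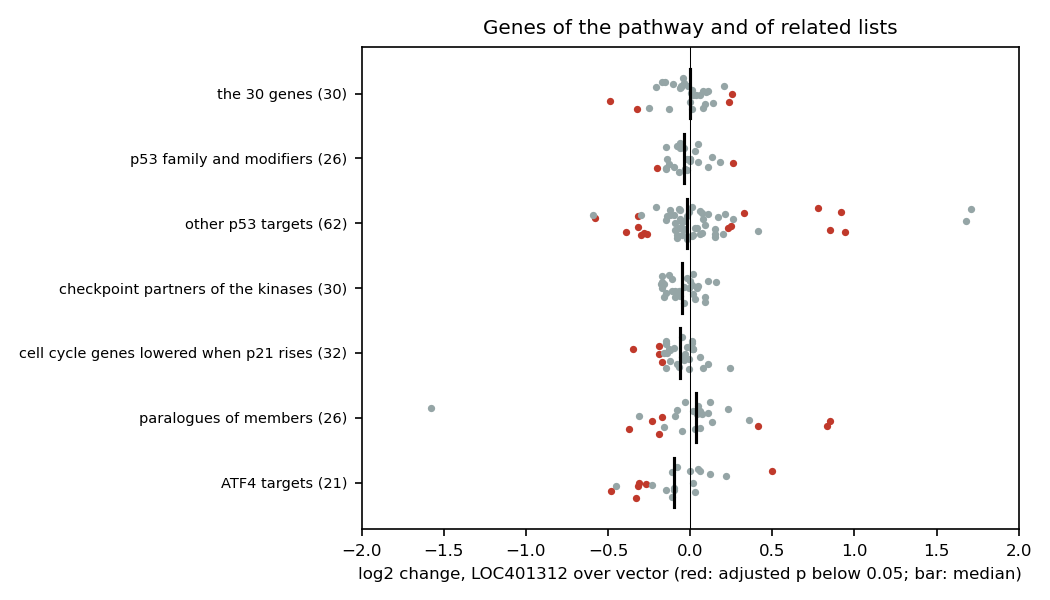
Log2 change, LOC401312 over vector (x axis), of each tested gene of the 30 and of the 6 further lists (y axis, number tested in brackets), red where the adjusted p was below 0.05, with black bars at the medians. The medians lie between -0.102 and 0.036, and CDKN2A, which had 0 counts in LOC401312, is off the scale and not drawn.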

How the data were processed

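RNA of 6 A549 libraries was compared, 3 per group. The authors deposited 1 table with counts and FPKM per library, per the file headers, and the counts are described as raw. The counts deposited by the authors are whole numbers without normalization. The deposited FPKM correct for transcript length and library size; how the authors computed them is not stated. Per the submitters' processing notes, cutadapt 1.9 and FastQC were used and the build was GRCh38 (hg38). Aligner, counter, annotation and strandedness: not given in the sources used here. Counts were tested with edgeR 4.0.16 (quasi-likelihood, TMM, filterByExpr, group as the only term; R 4.3.3) over 19620 of 38170 features, with Benjamini-Hochberg adjustment and a threshold of 0.05. Each standard error was obtained as log2 change over the root of F, and intervals are at 95%. CPM used TMM-adjusted library sizes. Alternatives used DESeq2 1.42.0, limma 3.58.1 on log2(FPKM + 0.1) for a mean FPKM of at least 0.1, other scalings and filters, a replicate block, left-out libraries, and offsets by chromosome medians (from genes averaging 4 CPM or more, on chromosomes with 50 or more such genes). FPKM centring was added after seeing the data. Within a group, libraries differed by more than sampling error (chi-square over its degrees of freedom, 13.68 to 22.86), and each was counted as 1 replicate. Fits were also run on simulated counts of independent libraries. These were built without chromosome-wide shifts, so that run is no check on such shifts.

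The genes and lists were chosen with earlier results of these data known, so no list gets a set test. Named were all 30 genes and, from each other list, up to 3 called genes of lowest p (2 genes if there was no call), with STEAP1B, CPS1 and the markers; 1 further gene of the rule is not reported here. Precision is limited by 3 libraries per group; 4900 features had 0 counts in all libraries.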

Additional observations from a re-analysis of the deposited data

How the results depend on the processing

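GDF15, FDXR, MDM2 and FAS kept their direction under every setting run, and up to 8 of the 26 genes not called changed sign under a setting. The counts of calls moved as follows, against 2 of the 30 genes higher and 2 lower, 811 and 899 of all features, and 3, 14, 0, 4, 7 and 6 calls among the p53 family and modifiers, other p53 targets, checkpoint partners, cell cycle genes, paralogues and ATF4 targets. Leaving out 1 library gave 0 to 2 of the 30 higher (0 without LOC401312 replicate 2), 2 to 3 lower, 393 to 963 and 439 to 1042 of all features, and 1 to 2, 8 to 16, 0 to 0, 1 to 6, 2 to 6 and 4 to 5 list calls. The lowest counts over all features came without LOC401312 replicate 2 and the highest without vector replicate 1. With the replicate block, 1 of the 30 was higher (FAS was lost), with 509 and 579 of all features. It left 1 call in the p53 family, 1 in the cell cycle list and 4 among paralogues. Same-numbered libraries did not deviate together over all features (correlations -0.056, -0.02 and -0.001). These values cannot settle whether the numbers pair libraries. Without LOC401312 replicates 2 and 3, 0 of the 30 were called, with 84 and 91 of all features, 2 other p53 targets and 0 in the p53 family, cell cycle, paralogue and ATF4 lists, with fewer samples. With chromosome medians removed, 1 of the 30 was higher (MDM2 was lost), 526 features were lower and 3 ATF4 targets were called. With no low-count filter, 1 of the 30 was higher, 577 features were lower, and 2 cell cycle genes and 4 paralogues were called; with a mean of at least 1 CPM, 1 checkpoint partner was called. With limma on log2(FPKM + 0.1), log2(FPKM + 1) and log2(FPKM + 0.01), 5 of the 30 were higher each time, 1599, 1584 and 1573 features were higher and 308, 303 and 297 lower, with 1 checkpoint partner, 0 cell cycle genes and 2 ATF4 targets; at 0.01, 1 of the 30 was lower (FDXR was lost, adjusted p = 0.0507). With no FPKM filter, 4 of the 30 were higher and 1 lower, 180 features were lower, and 1 gene of the p53 family, 0 cell cycle genes, 3 paralogues and 0 ATF4 targets were called. With centred libraries, 1 of the 30 was higher, with 1 call in the p53 family and 4 among paralogues. At a threshold of 0.01, 1 of the 30 was higher, 333 and 405 features, 1, 9, 1 and 2 calls in the p53 family, other targets, cell cycle and paralogue lists; at 0.1, 4 of the 30 were lower, 1271 features higher, 5 calls in the p53 family and 1 among checkpoint partners. The cause of these moves was not tested, also where fewer samples were used.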
